A study of Mus musculus with 4 samples.

Results

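The subject is 41 nuclear genes that encode subunits of respiratory complexes II to V: 4 genes of complex II, 9 of complex III, cytochrome c as the carrier between complexes III and IV, 12 of complex IV and 15 of complex V. They were chosen by symbol from the 52636 genes of the deposited count table, by a rule that uses no measured value, though with earlier results of these data known, and each symbol matched 1 row. The RNA came from flow-sorted dentate gyrus cells of C57BL/6 mice at 6 to 7 weeks, from 2 Fmr1-/y; Dcx-DsRed samples, called knockout (KO) here, and from 2 samples of wild type (WT) littermates. Fmr1-/y males lack a working gene for the RNA-binding protein FMRP, and Dcx-DsRed is a red reporter of cells that express doublecortin, the microtubule protein of neuroblasts and immature neurons. The series design names DsRed cells for both genotypes, while the sorting protocol names either all living cells or the DsRed-positive ones, with 10000 collected. The labels do not name the Fmr1 allele and do not say whether the samples of a genotype came from separate animals or from pools, and do not spell out that the WT littermates carried the reporter; p-values measure the spread between libraries, which may be partly technical.

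Complex II, succinate dehydrogenase, feeds electrons from the citric acid cycle into the membrane pool of ubiquinone. Complex III passes them to cytochrome c, and complex IV, cytochrome c oxidase, hands them to oxygen; complexes III and IV pump protons as they do so. Complex V, the ATP synthase, lets the protons flow back through a rotating ring and makes ATP. Developing granule neurons of the dentate gyrus are known to depend increasingly on this chain as they leave the glycolytic stem cell state. Every subunit of complex II is nuclear-encoded, whereas complexes III, IV and V also hold subunits made in the mitochondrion.

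Total counts were 5662429 and 6702841 in KO and 5478224 and 7213759 in WT libraries, given as replicate 1 and replicate 2 here and throughout. The 41 genes together held 0.345% and 0.313% of them in KO and 0.389% and 0.332% in WT libraries, and every gene was detected in every library. Fmr1, the check of the labels, lay at 43.4 and 29.7 CPM (the count relative to the library's total, scaled between libraries by the TMM method) in KO against 73.1 and 91.6 CPM in WT libraries, a log2 fold change of -1.17 ± 0.36 (standard error, SE), with both KO libraries lower but not called after adjustment over all genes. Dcx lay at 456 and 211 CPM in KO and 330 and 166 CPM in WT libraries. Markers of other cell types were read as well. Summed over 5 oligodendrocyte markers the level was 3382 and 8671 CPM in KO and 1619 and 9525 CPM in WT libraries, with replicate 2 above replicate 1 in both genotypes. The sum over 4 oligodendrocyte precursor markers was 561 and 3634 CPM in KO and 359 and 2834 CPM in WT libraries. That over 7 astrocyte or radial glia markers was 10271 and 7011 CPM in KO and 9922 and 8415 CPM in WT libraries. Of the latter, Slc1a2 alone made up 5853 and 4771 CPM in KO and 5454 and 5110 CPM in WT libraries. Of these 7 genes 5 had estimates below 0, where 48.4% of all genes tested did, and the median log2 fold change was -0.27. In 28.6% of the 7, both KO libraries lay below both WT libraries, where 13.7% of all genes did. The sum over 8 immature neuron markers was 3207 and 1511 CPM in KO and 2790 and 1417 CPM in WT libraries. The sum over 6 mature granule neuron markers was 1139 and 3277 CPM in KO and 1099 and 2163 CPM in WT libraries, of which Camk2a alone made up 819 and 2954 CPM in KO and 774 and 1777 CPM in WT libraries; 3 of the 6 had estimates below 0, and the median log2 fold change was -0.16. The sum over 5 interneuron markers was 71.1 and 143 CPM in KO and 68.3 and 81.1 CPM in WT libraries. Microglial markers (6 genes, 16.8 to 51.3 CPM in sum) and endothelial or pericyte markers (5 genes, 34.1 to 117 CPM) were low in every library. None of these markers was called between the genotypes. In such sorted pools fewer cells of a type and less RNA per cell cannot be told apart, and the part of cell composition in the values below was not tested.

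None of the 41 genes was called between the genotypes at an adjusted p under 0.05 (edgeR's quasi-likelihood test, Benjamini-Hochberg adjustment over 14673 genes), where 0% of all genes tested were called. Every member had an adjusted p of 0.9999. At an unadjusted p under 0.05 the count was also 0 of 41, where 1.05% of all genes passed (0.579% of all genes lower and 0.47% higher in KO). DESeq2 gave 0 of 41 at that level, where 1.68% of all genes passed, and limma voom gave 0 of 41, where 0.593% passed; neither called a member after adjustment. All 41 genes passed the filter on low counts. In sign, 30 of the 41 had an estimate below 0, lower in KO, a share of 73.2% where 48.4% of all genes tested did. Under the other scalings of the libraries the count was 28 to 34, where 46.9% to 54.7% of all genes lay below 0. With a trend on gene length subtracted it was 21 of 41, where 43.9% of all genes lay below 0, and with that trend and the replicate number as a block it was 18 of 41, where 44.6% of all genes did. The median log2 fold change of KO over WT was -0.15, beside 0.02 over all genes tested, and single estimates ran from -1.84 to 0.53. The median SE of a member was 0.40 on the log2 scale, and 11 of 41 estimates were larger than their own SE, where 3175 of all 14673 were. Both KO libraries lay below both WT libraries for 12 members (29.3%, where 13.7% of all genes did) and above them for 1 member (2.44%, where 11.8% of all genes did).

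**Figure D1:**
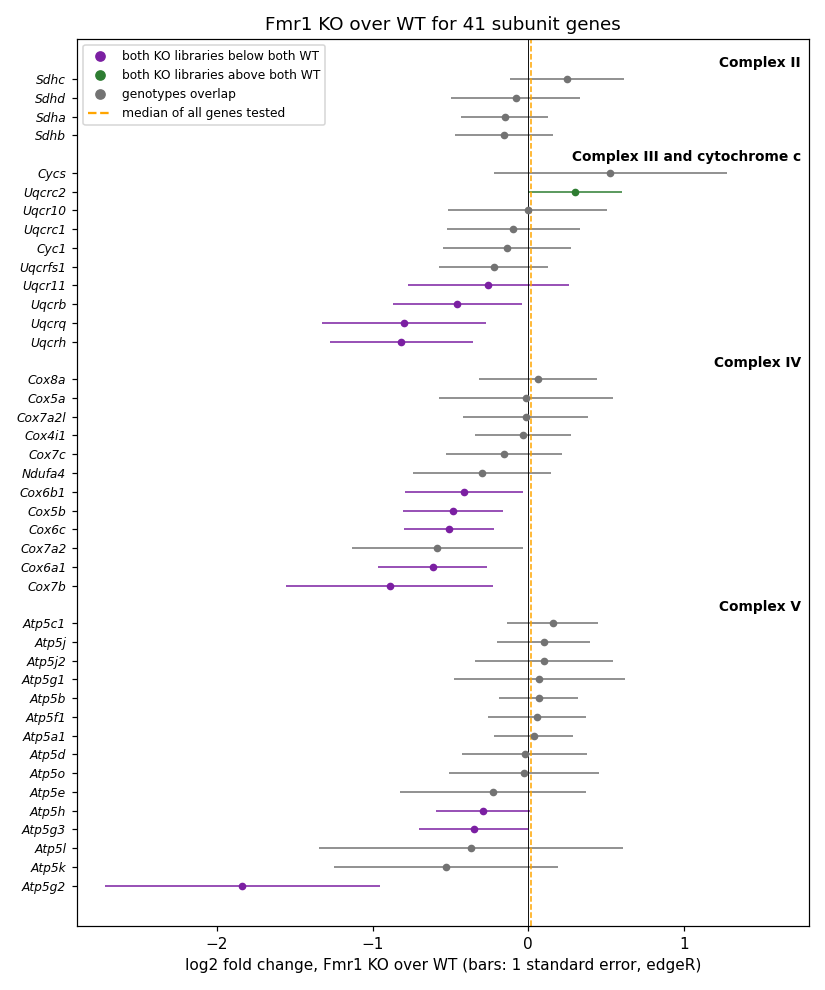
Log2 fold change of KO over WT for each of the 41 genes (x axis), grouped by complex and sorted within it, with bars of 1 SE from edgeR. Purple points mark the 12 genes with both KO libraries below both WT libraries, the green point marks Uqcrc2, with both KO libraries above both WT libraries, and the dashed line is the median of all genes tested.

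Complex II showed the smallest range of estimates, from -0.16 to 0.25, and the genotypes overlapped for all 4 genes. Sdha, the flavoprotein that oxidises succinate, was the most abundant, at 206 and 274 CPM in KO against 266 and 268 CPM in WT libraries. KO replicate 1 was the low library and KO replicate 2 lay just above both WT libraries, so the log2 fold change was -0.15 ± 0.28. Sdhb, the iron-sulfur subunit, had 61.5 and 69.3 CPM in KO and 82.2 and 63.7 CPM in WT libraries, with a log2 fold change of -0.16 ± 0.31. Of the membrane anchors that bind ubiquinone, Sdhc had 38.8 and 49.6 CPM in KO and 35.3 and 39.2 CPM in WT libraries, a log2 fold change of 0.25 ± 0.37. The other anchor, Sdhd, varied most between the KO libraries, at 78.4 and 39.2 CPM against 68.5 and 56.0 CPM in WT libraries. Summed over the complex the level was 408.6 ± 33.4 CPM in KO and 439.4 ± 18.2 CPM in WT libraries (SD, n = 2 each).

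In complex III the median log2 fold change was -0.22, and -0.05 with a trend on gene length subtracted. The medians over all genes tested were 0.02 and 0.06. Over the alternatives other than leaving out a library, the median of complex III ran from -0.29 to 0.05. In the main fit 8 of 9 estimates lay below 0. The exception, Uqcrc2, and its partner Uqcrc1 are the large core proteins on the matrix side. Uqcrc2 (chromosome 7, 120635176 to 120659524, GRCm38) had 90.5 and 121 CPM in KO against 88.2 and 83.8 CPM in WT libraries. It was the only one of the 41 with both KO libraries above both WT libraries, with KO replicate 1 close to the WT libraries, and its log2 fold change was 0.30 ± 0.30. The gene shares exon bases with Pdzd9 on the opposite strand. Uqcrc1, the most abundant gene of the complex, had 164 and 74.7 CPM in KO and 151 and 105 CPM in WT libraries, with replicate 1 high in both genotypes. The 2 redox subunits other than mitochondrial cytochrome b were Cyc1, cytochrome c1, at 106 and 48.9 CPM in KO and 81.0 and 88.6 CPM in WT libraries, and Uqcrfs1, the Rieske iron-sulfur protein, at 38.3 and 50.6 CPM in KO and 49.2 and 54.4 CPM in WT libraries. For Cyc1 the KO libraries lay on either side of the WT libraries.

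The 5 small subunits of complex III, grouped after the values were seen, all had estimates below 0, where 48.4% of all genes tested did. In 4 of them (Uqcrb, Uqcrh, Uqcrq and Uqcr11) both KO libraries lay below both WT libraries, where 13.7% of all genes did. Uqcrh, the acidic hinge protein next to cytochrome c1 (chromosome 4, 116066965 to 116075071), had 25.3 and 17.2 CPM in KO against 44.9 and 29.8 CPM in WT libraries. KO replicate 1 and WT replicate 2 stood nearest to each other, the log2 fold change was -0.82 ± 0.46, and the unadjusted p was 0.119 (edgeR). Uqcrq, which sits beside cytochrome b (chromosome 11, 53427922 to 53430831), had 13.2 and 16.04 CPM in KO and 32.6 and 18.3 CPM in WT libraries. WT replicate 1 was the high library, and the log2 fold change was -0.80 ± 0.53 with it and -0.33 without it. Uqcrb, a subunit at the ubiquinone-binding side (chromosome 13, 66900617 to 66905378), had 30.9 and 21.5 CPM in KO and 37.3 and 34.7 CPM in WT libraries, with a log2 fold change of -0.46 ± 0.42. Uqcr10 differed by almost nothing, at 15.7 and 17.8 CPM in KO and 15.8 and 17.9 CPM in WT libraries. Without KO replicate 1 the median of the complex was -0.66.

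Cytochrome c itself gave the highest estimate of all, and its sign rested on a single library. Cycs, which shuttles electrons between complexes III and IV and triggers apoptosis when released, had 24.9 and 27.7 CPM in KO against 5.93 and 30.5 CPM in WT libraries. WT replicate 1 stood alone with 35 counts, while the other 3 libraries had 146 to 212. The log2 fold change was 0.53 ± 0.75, and without WT replicate 1 it was -0.22.

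**Figure D2:**
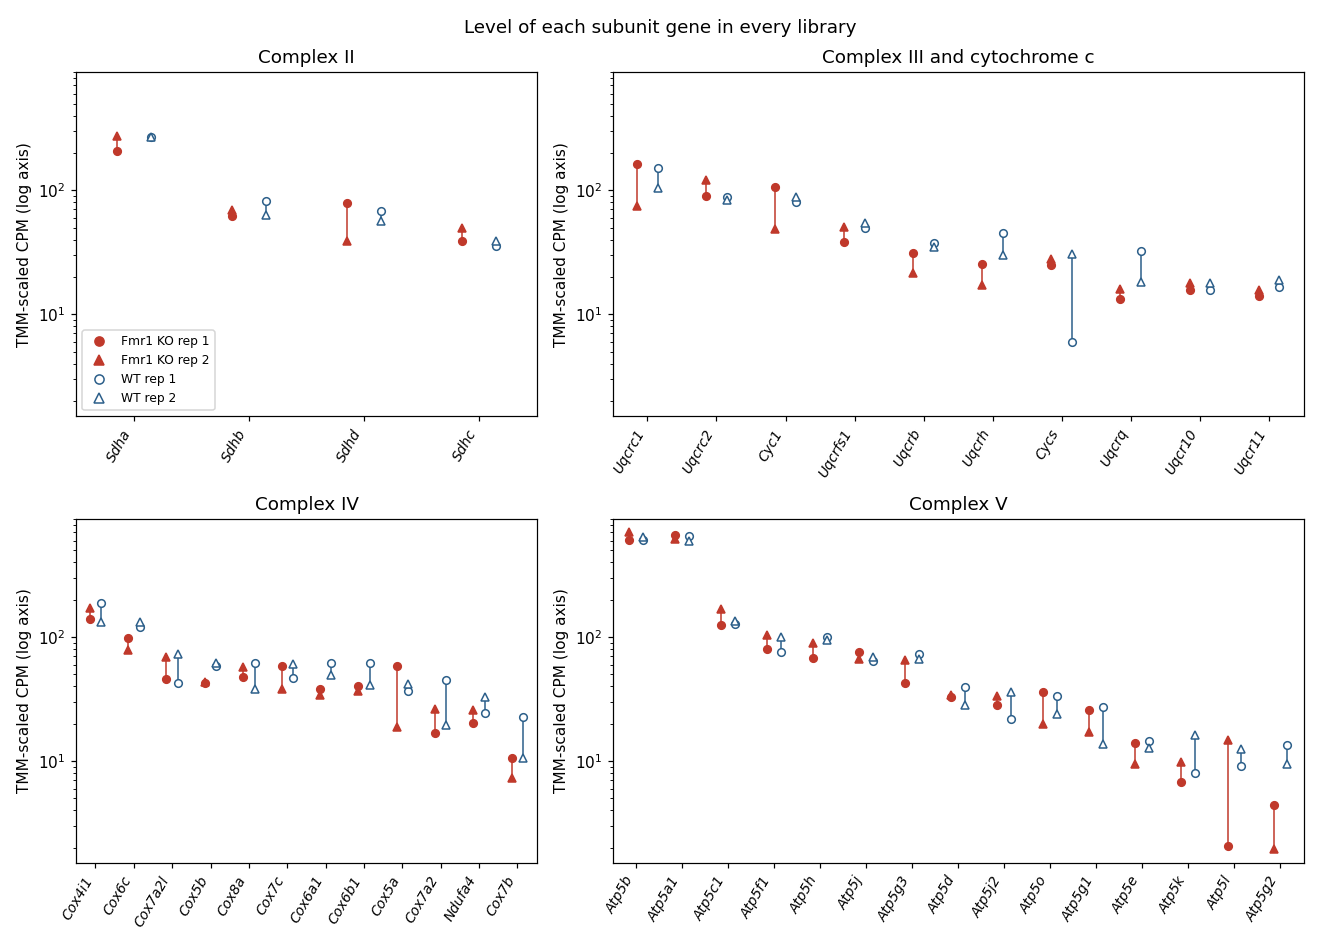
TMM-scaled CPM on a log axis for every gene in every library, with 1 panel per complex and genes sorted by mean level. Filled red symbols are KO and open blue symbols WT libraries, circles are replicate 1 and triangles replicate 2, and the vertical line joins the libraries of a genotype. Atp5b and Atp5a1 sit between 594 and 698 CPM in all 4 libraries, and Cycs in WT replicate 1 and Atp5l in KO replicate 1 stand far below their other libraries.

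Complex IV had the lowest median of the 4 complexes with all libraries in the fit; without KO replicate 1 it was -0.47, and that of complex III was lower. Of its 12 genes 11 had estimates below 0, the median log2 fold change was -0.36, and in 5 (41.7%, where 13.7% of all genes did) both KO libraries lay below both WT libraries. The summed level was 619 and 608 CPM in KO against 772 and 693 CPM in WT libraries, a ratio of the means of 0.838, and the groups did not overlap. The median ran from -0.47 to -0.30 when each library was left out in turn, and was -0.40 among replicate 1 and -0.41 among replicate 2 libraries. Once a trend with gene length, described with the lengths of the members, was subtracted, the median was -0.17. It was -0.027 where the fit also held the replicate number as a block. Beside each of these the median over all genes tested was 0.06, against 0.02 in the fit with no trend or block. The genes listed here surround the catalytic core, which is made in the mitochondrion itself. They shape its assembly, its stability and its response to ATP.

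Cox5b, a zinc-binding subunit on the matrix side (chromosome 1, 36691449 to 36693681), had 42.4 and 43.7 CPM in KO against 58.7 and 61.8 CPM in WT libraries, and the libraries of each genotype lay close together. The log2 fold change was -0.48 ± 0.32, and it stayed between -0.53 and -0.46 when any 1 library was left out. Cox6a1, which helps hold the enzyme as a dimer (chromosome 5, 115345642 to 115348981), had 38.3 and 34.2 CPM in KO and 61.4 and 49.5 CPM in WT libraries. Both WT libraries were higher than either KO library, with a log2 fold change of -0.61 ± 0.35 and an unadjusted p of 0.124 (edgeR). Cox6c, a transmembrane subunit (chromosome 15, 35925886 to 35938246), had 98.9 and 79.2 CPM in KO and 121 and 132 CPM in WT libraries, a log2 fold change of -0.51 ± 0.29. Replicate 1 was the higher library in KO and the lower in WT.

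Cox7b, encoded on the X chromosome (106015700 to 106022450), had the lowest estimate of the complex. Its level was 10.6 and 7.29 CPM in KO and 22.5 and 10.7 CPM in WT libraries, so KO replicate 1 and WT replicate 2 were nearly equal, and the log2 fold change was -0.89 ± 0.67. Without WT replicate 1 it was -0.26. Cox6b1, on the face toward the intermembrane space (chromosome 7, 30616861 to 30626151), had 40.3 and 36.8 CPM in KO and 61.9 and 40.9 CPM in WT libraries. There too WT replicate 1 was the high library, and the log2 fold change was -0.41 with all libraries and -0.09 without it. Cox7a2 shared that high WT library, with 16.9 and 26.4 CPM in KO and 45.4 and 19.6 CPM in WT libraries, and its genotypes overlapped.

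The other 6 genes of complex IV overlapped between the genotypes. Cox4i1, the most abundant and the subunit through which ATP is known to inhibit the enzyme, had 141 and 171 CPM in KO and 188 and 131 CPM in WT libraries, with a log2 fold change of -0.03. Cox8a, a small membrane subunit, had the highest estimate of the complex, 0.06, at 47.3 and 57.5 CPM in KO and 62.0 and 38.3 CPM in WT libraries. Both genes were higher in replicate 2 within KO and in replicate 1 within WT. Cox5a, to which thyroid hormone metabolites are known to bind, spread most between the KO libraries, at 58.8 and 19.0 CPM, and stayed at 36.6 and 41.8 CPM in WT libraries. Cox7a2l, which joins complexes III and IV into supercomplexes, had 46.3 and 68.4 CPM in KO and 42.9 and 73.0 CPM in WT libraries, so replicate 2 was the higher library in both genotypes. Ndufa4, long taken for a complex I subunit, and Cox7c had log2 fold changes of -0.30 ± 0.44 and -0.15 ± 0.37.

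Isoforms that heart, muscle, testis or lung are known to use in place of these genes were at low levels or not detected. Of 8 such genes (Cox4i2, Cox6a2, Cox6b2, Cox7a1, Cox7b2, Cox8b, Cox8c and Cyct), 1 passed the filter and 3 had 0 counts in all libraries. Cox6b2 was the one tested, at 1.71 and 4.37 CPM in KO and 4.41 and 4.03 CPM in WT libraries.

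Complex V overlapped between the genotypes in sum, at 1812 and 1946 CPM in KO and 1868 and 1850 CPM in WT libraries, a ratio of the means of 1.01. Its median log2 fold change was -0.02, with 8 of 15 estimates below 0. The catalytic head set the sum. Atp5b, the subunit that carries the catalytic sites, had 609.6 and 698 CPM in KO and 610.0 and 638 CPM in WT libraries. Atp5a1, its noncatalytic neighbour in the head, had 660 and 614 CPM in KO and 651 and 594 CPM in WT libraries. Their log2 fold changes were 0.07 ± 0.25 and 0.03 ± 0.25, with the smallest SEs among the 41 genes. Of the central stalk, Atp5c1, the rotating shaft, had the highest estimate of the complex, 0.16, at 125 and 169 CPM in KO and 128 and 136 CPM in WT libraries. Atp5d and Atp5e, the small foot of the shaft, had log2 fold changes of -0.02 ± 0.40 and -0.23 ± 0.60.

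Outside the head, the peripheral stalk that holds it still was split. Atp5h had 68.3 and 89.9 CPM in KO and 99.7 and 94.3 CPM in WT libraries, with the groups apart and a log2 fold change of -0.29 ± 0.30. Atp5f1, Atp5j and Atp5o had estimates of 0.06, 0.10 and -0.03; Atp5j shares exon bases with Gabpa, which encodes a regulator of respiratory genes, on the opposite strand. Among the membrane subunits Atp5j2, Atp5k and Atp5l the estimates were 0.10, -0.53 and -0.37. Atp5l had 12 counts in KO replicate 1 and 54 to 91 in the other 3 libraries, and its SE of 0.98 was the largest of the 41.

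The ring that turns in the membrane is built from subunit c, and 3 genes encode it. Their mature proteins are known to be the same, and the genes differ in the targeting sequence that is cut off on import, so the 3 mRNAs are alternative sources of 1 protein. The first 90 bases of the stretch that encodes the mature subunit are shown to make visible how the mRNAs can be told apart; they were read from GENCODE M21 transcripts on GRCm38, and capitals mark the 22 positions at which the 3 genes are not all alike.
Atp5g1: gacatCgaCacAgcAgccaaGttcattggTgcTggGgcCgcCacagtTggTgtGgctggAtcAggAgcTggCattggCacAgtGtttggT
Atp5g2: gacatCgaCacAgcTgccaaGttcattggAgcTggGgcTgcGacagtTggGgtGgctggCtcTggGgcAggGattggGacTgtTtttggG
Atp5g3: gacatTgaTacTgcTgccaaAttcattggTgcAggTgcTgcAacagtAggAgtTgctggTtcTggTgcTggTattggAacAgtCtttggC
Over the whole stretch of 225 bases, Atp5g1 and Atp5g2 were identical at 84.9%, Atp5g1 and Atp5g3 at 80.0% and Atp5g2 and Atp5g3 at 78.7% of positions. Of the 34 differences between Atp5g1 and Atp5g2, 32 fell on the third base of a codon. The longest run of identical bases in any pair was 20 bases, shorter than the 100-base reads of this series, so reads from this stretch differ between the genes.

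Atp5g3 was the main source in every library, and Atp5g2 had the lowest estimate of all 41 genes. Atp5g2 (ENSMUSG00000062683.11, chromosome 15, 102662864 to 102672352, minus strand) had 4.44 and 1.94 CPM in KO against 13.4 and 9.504 CPM in WT libraries, from 26 and 12 counts in KO and 79 and 66 counts in WT libraries. Both KO libraries lay below both WT libraries, and the log2 fold change was -1.84 ± 0.88 with an unadjusted p of 0.0761 (edgeR), not called. It ran from -2.54 to -1.38 when each library was left out in turn. Atp5g3 (chromosome 2, 73908447 to 73911326) had 42.7 and 65.8 CPM in KO and 72.4 and 66.1 CPM in WT libraries. KO replicate 2 was nearly level with WT replicate 2, and the log2 fold change was -0.35 ± 0.35, or -0.07 without KO replicate 1. Atp5g1 (chromosome 11, 96068852 to 96075670) had 25.8 and 17.2 CPM in KO and 27.1 and 13.8 CPM in WT libraries, with replicate 1 high in both genotypes and a log2 fold change of 0.07 ± 0.55.

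As a share of the counts of the 3 genes, Atp5g2 made up 6.09% (exact 95% binomial interval 4.02% to 8.79%) and 2.29% (1.19% to 3.97%) in KO libraries, against 11.9% (9.505% to 14.6%) and 10.6% (8.32% to 13.3%) in WT libraries. The shares of the KO libraries lay below those of the WT libraries, with intervals that cover counting error only. The share of Atp5g3 was 58.5% and 77.5% in KO and 64.1% and 73.9% in WT libraries. That of Atp5g1 was 35.4% and 20.2% in KO and 24.0% and 15.5% in WT libraries. The intervals of the 2 KO libraries did not overlap for any of the 3 genes, Atp5g2 included, and those of the 2 WT libraries did not overlap for Atp5g1 and Atp5g3, so replicates of a genotype stood apart beyond counting error there.

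**Figure D3:**
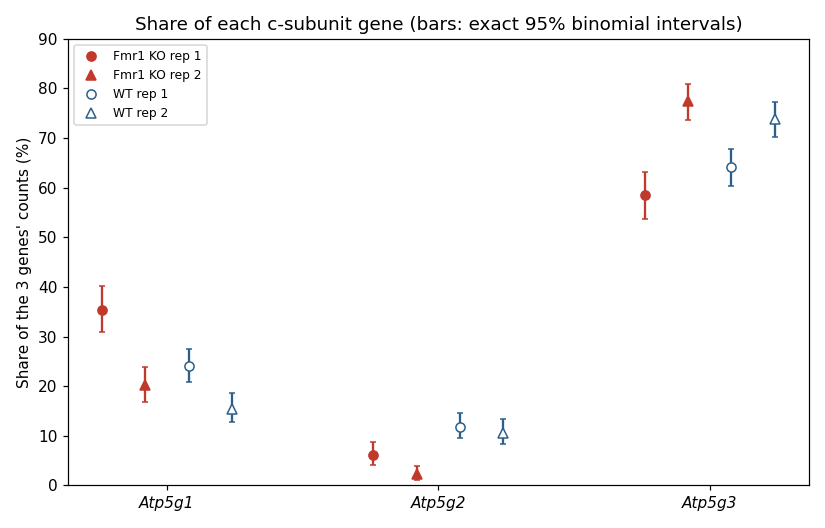
Share of the counts of Atp5g1, Atp5g2 and Atp5g3 taken by each gene (y axis, percent) in every library, with exact 95% binomial intervals; filled red symbols are KO, open blue symbols WT. Atp5g2 lies at 2.29% and 6.09% in KO and at 10.6% and 11.9% in WT libraries.

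Levels per kilobase of deposited gene length differed widely within a complex. In complex V the mean over the 4 libraries was 201 CPM per kb for Atp5a1 and 151 for Atp5b, which are present in several copies per enzyme, and 72.9 for Atp5c1, 17.4 for Atp5d and 7.23 for Atp5e, which are present once. The c-subunit genes, whose protein is also present in several copies, had 28.3 (Atp5g3), 4.37 (Atp5g2) and 4.27 (Atp5g1). By this measure the level did not follow copy number throughout. The deposited length is a value per gene, 4912 bases for Atp5g1, and the length of the mRNA in these cells was not measured. Without division by length, mean CPM was 139 for Atp5c1, 33.6 for Atp5d and 12.7 for Atp5e. It was 61.7 for Atp5g3, 21.0 for Atp5g1 and 7.32 for Atp5g2. Atp5l was lowest of all at 1.49 CPM per kb, with the longest deposited length, 6443 bases. In complex IV the range ran from 10.5 CPM per kb for Cox7b to 102 for Cox4i1, in complex III from 10.9 for Uqcrq to 67.9 for Cyc1, and in complex II from 12.5 for Sdhc to 61.5 for Sdha. The order of the 41 genes by CPM was much the same in each library, with Spearman's rho from 0.905 to 0.956 over the 6 pairs of libraries. That is a correlation across genes, which are not independent replicates and share the depth of their library.

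Gene length and level both moved with the estimates. Among the 8 members under 1000 bases the median log2 fold change was -0.44, and among the 16 of 1000 to under 2000 bases it was -0.22; 7 of the 8 and 15 of the 16 lay below 0. For the 11 members of 2000 to under 4000 bases it was 0.03, with 5 below 0, and for the 6 of 4000 bases or more -0.02, with 3 below 0. Over all genes tested the medians in the same classes were -0.05, -0.08, -0.01 and 0.04. Across the 41 members the estimate had a Spearman's rho of 0.42 with length, given as a description, beside 0.06 over all genes. With mean CPM in place of length it was 0.39 (Pearson's r 0.44, and 0.31 with length), so the level of a gene went with the estimates to a like degree, and their parts were not told apart. A smooth trend on length over all genes, subtracted, left medians of -0.03 for the members and -0.17 for complex IV, beside 0.06 over all genes tested. Before that they were -0.15 and -0.36, beside 0.02 over all genes tested. With the trend subtracted, 21 of 41 estimates lay below 0, where 43.9% of all genes did. A robust version of that trend left -0.09 for the members and -0.26 for complex IV, with 23 of 41 below 0 where 48.1% of all genes were.

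**Figure D4:**
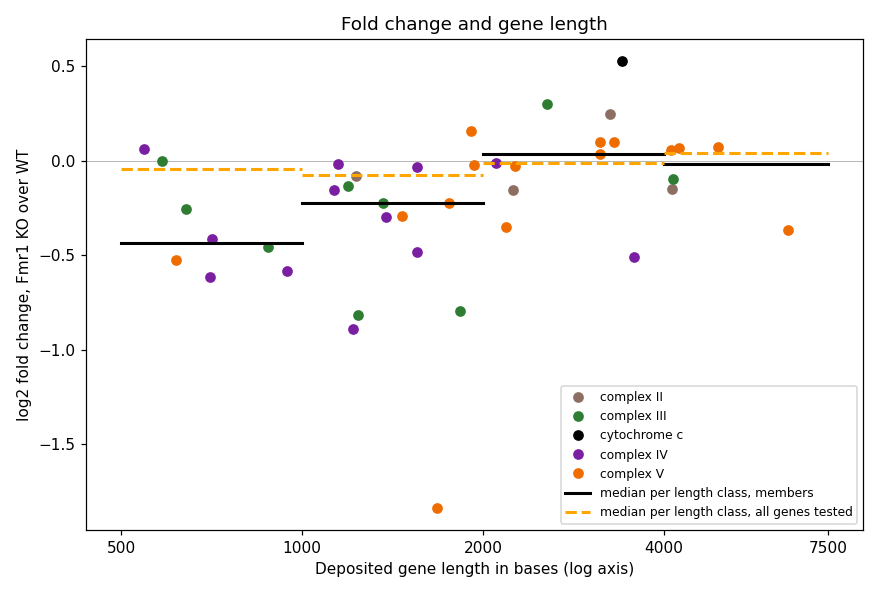
Log2 fold change of KO over WT (y axis) against deposited gene length (x axis, log scale) for the 41 genes, coloured by complex. Black lines are the medians of the members in each length class (-0.44, -0.22, 0.03 and -0.02 from short to long) and dashed orange lines those of all genes tested.

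Libraries of the same replicate number were also set against each other. Among replicate 1 libraries 27 of 41 members were lower in KO, with a median log2 difference of -0.24, and among replicate 2 libraries 27 were lower, with a median of -0.11. The members lower in both were 17 (41.5%, where 25.8% of all genes were), and those higher in both were 4 (where 25.4% of all genes were). By complex, those lower in both were 0 of 4 in complex II, 6 of 9 in complex III, 6 of 12 in complex IV and 5 of 15 in complex V. Between replicates of a genotype the members differed by a median of 0.40 on the log2 scale in KO and 0.37 in WT, beside 0.65 and 0.49 over all genes tested. Mitochondrial rRNA, which took 1.32% and 4.57% of counts in KO and 1.19% and 3.32% in WT libraries, was higher in replicate 2 in both genotypes. With all genes of the mitochondrial genome left out before scaling, the median log2 fold change was -0.16 for the members and -0.36 for complex IV. In that fit 30 of 41 members lay below 0, where 49.1% of all genes did. Apart from this scaling, the part of mitochondrial rRNA in the subunit values was not tested.

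**Figure D5:**
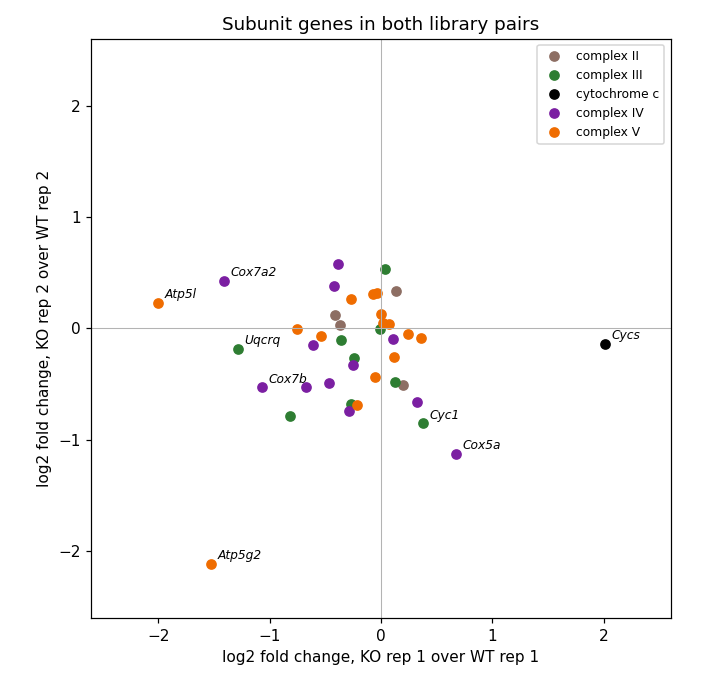
Log2 difference of KO and WT among replicate 1 libraries (x axis) and among replicate 2 libraries (y axis) for the 41 genes, coloured by complex. The 17 genes in the lower left quadrant were lower in KO in both, with Atp5g2 at -1.53 and -2.12, and Cycs, Atp5l and Cox5a lie far from the diagonal.

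Of 6 subunits of complexes III to V that the mitochondrial genome encodes, mt-Co2, mt-Co3, mt-Atp6 and mt-Atp8 are listed at 0 counts in all libraries of the table, for a reason not given in its sources. mt-Co1, the catalytic subunit of complex IV, had 2793 and 7634 CPM in KO and 2565 and 5857 CPM in WT libraries, and mt-Cytb of complex III had 1120 and 2421 CPM in KO and 1183 and 2190 CPM in WT libraries. Both were higher in replicate 2 in both genotypes, unlike the nuclear-encoded sum of complex IV, which was slightly higher in replicate 1 in both genotypes.

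Assembly factors, which insert metals and join subunits without staying in the enzyme, were tested for 29 of 33 genes, and 0 were called. Of these genes 17 had estimates below 0, with a median log2 fold change of -0.09. For complex IV it was 12 of 17 below 0, a median of -0.15, and Coa5, the most abundant of them, had 75.8 and 162 CPM in KO and 71.7 and 103 CPM in WT libraries. For complex III it was 1 of 6 below 0, with Ttc19 at 32.6 and 50.2 CPM in KO and 49.2 and 32.4 CPM in WT libraries. All 3 tested factors of complex II were below 0, among them Sdhaf2, which helps attach the flavin to Sdha, at 12.1 and 8.75 CPM in KO and 15.3 and 20.2 CPM in WT libraries. For complex V it was 1 of 3, with Atpaf1, which assembles the catalytic head, at 40.7 and 29.8 CPM in KO and 37.8 and 20.2 CPM in WT libraries. Of 5 further proteins tied to complex V, Atpif1, its inhibitor, was the most abundant, at 96.3 and 70.6 CPM in KO and 97.0 and 59.8 CPM in WT libraries.

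Promoters of respiratory genes are known for sites of the factors NRF1, GABPA and YY1, so the windows from 250 bases before to 50 bases after the start (RefSeq, GRCm38.p6) were searched for 1 exact motif each, on both strands. A window was matched for 33 of the 41 members. The shares over all genes that follow count every gene with a window, whether or not it was tested here. The NRF1 motif GCGCATGCG, nearly its own reverse complement so that both strands often match at overlapping positions, was found for 7 of 33 members (21.2%) and 1.95% of all 27025 genes in the table. The GABPA motif CCGGAAGT was found for 4 of 33 (12.1%) and 4.31% of all genes, and the YY1 motif AAGATGGCG for 2 of 33 (6.06%) and 1.64%. Among the 9 matched members with both KO libraries below both WT libraries, 3 held the NRF1 motif and 3 the GABPA motif, and among the 24 that overlapped the counts were 4 and 1. Sites of 4 genes are shown on the strand of the gene, and these genes lie on the minus strand of their chromosomes, with the motif or its reverse complement in capitals. Cycs had the highest estimate (site at chr6:50566612-50566640), Atp5g2 the lowest (chr15:102671071-102671099), and Cox6a1 (chr5:115349102-115349130) and Uqcr11 (chr10:80406870-80406897) had both KO libraries below both WT libraries. The site shown for Uqcr11 is the GABPA motif, though its window also held the NRF1 motif, and the others shown are NRF1 motifs. That of Atp5g2 lies before the RefSeq start but inside the longer GENCODE gene.
Cycs: catgctagctCGCATGCGCgcgcacaaac
Atp5g2: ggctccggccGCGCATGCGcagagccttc
Cox6a1: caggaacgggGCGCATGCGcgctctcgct
Uqcr11: tctctcctccCCGGAAGTagatgtcaat
These matches are descriptions of the letters in the windows. The NRF1 motif stood in the genes with the highest and the lowest estimate, Cycs and Atp5g2. Without WT replicate 1 the log2 fold change of Cycs was -0.22. Other genes with estimates toward either end, Cox7b (-0.89), Uqcrh (-0.82) and Atp5c1 (0.16), held no NRF1 motif in their windows. The part of NRF1 in the estimates was not tested.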

How the data were processed

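Poly(A) RNA of 4 sorted samples was sequenced as strand-specific, paired-end libraries, per the labels' protocols. The deposited file holds the authors' raw read count for each gene and library and the gene length, with 0 further per-sample columns. Reads were aligned with STAR 2.5.3a to GRCm38, per the submitters' processing notes. The Gencode release, the counting program and its strand option were not found in these sources. Exons of 12 members share bases with another annotated gene (11 on the opposite strand, GENCODE M21), among them Cox4i1, Cox6c, Uqcrb, Uqcrc2 and Atp5g2, so their counts are uncertain to that extent; 6 rows of related pseudogenes held 1 count in all.

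Counts were filtered with filterByExpr (14673 of 52636 genes kept), scaled by TMM and compared by edgeR 4.0.16 in R 4.3.3 (estimateDisp, robust glmQLFit, two-sided quasi-likelihood F-test, genotype as the only term), calling at a Benjamini-Hochberg adjusted p under 0.05. The SE was taken as the absolute log2 fold change over the root of F. Values within a replicate number used log2 CPM with a prior count of 2. DESeq2 1.42.0, limma voom (3.58.1), other scalings and filters, a block, a loess on length (span 0.5) and leaving out each library were alternatives. The gene-wise fit was tested on simulated data with far less spread between replicates than these libraries show, which checks the code and signs but not what could be detected here. Intervals cover counting error only, since reads carry no molecular identifiers.

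The members and lists were chosen with earlier results of these data known. Library values are given for the most abundant member and the extreme estimates of each complex, and for members whose groups do not overlap by over 1.25 times. They are also given for the c-subunit genes, for Cycs and, from other lists, for the most abundant gene. Other members with library values, the groups of subunits by role and the length classes were chosen after their values were seen. Marker lists are given by their sums.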

Additional observations from a re-analysis of the deposited data

How the results depend on the processing

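No member was called under any of the 15 fits run, while the spread of 2 libraries a group (common biological coefficient of variation 0.538) limits what could be called. With the replicate block 10 genes of the whole table were called and 778 had an unadjusted p under 0.05, against 0 and 154 without it; 0 members were called with it, and their median log2 fold change was -0.18. The labels share only a number, over 2 pairs, and same-numbered libraries deviated together with a correlation of 0.364. With 4 libraries the block leaves each gene little spread of its own, so the p-values of that fit rest mostly on spread pooled over genes. Unadjusted p under 0.05 (edgeR) was reached by 2 of 41 members with the block, where 778 of 14673 genes reached it. With a minimum of 1 CPM in every library it was reached by 1 of 41 members, where 128 of 12461 genes did. Among replicate 1 libraries the median of the members was -0.24. The length trend gave -0.030 for all members, beside 0.061 for all genes, -0.17 for complex IV and 0.10 for complex V. With the block added it gave 0.058 for all members, beside 0.058 for all genes, 0.10 for complex II, -0.027 for complex IV and 0.14 for complex V, with 18 members below 0. A trend on length and GC content, like the robust trend chosen after seeing the data, gave -0.043 for all members, -0.15 for complex IV and 0.086 for complex V. Scaled by library size only, the log2 fold changes of Cox8a and Atp5g1 were -0.025 and -0.00072. When each library was left out in turn, 26 to 28 members lay below 0, where 47.5% to 53.8% of all genes did. The median of complex III then ran from -0.66 to -0.18 and that of complex V from -0.13 to -0.019. Single log2 fold changes that crossed 0 then ran from -0.39 to 0.039 for Sdha, -0.34 to 0.035 for Sdhb, -0.77 to 0.35 for Uqcrc1, -0.28 to 0.24 for Cox4i1, -0.26 to 0.45 for Cox8a, -0.047 to 0.16 for Atp5b, -0.091 to 0.36 for Atp5c1, -0.35 to 0.63 for Atp5g1 and -0.22 to 2.13 for Cycs. The cause of these shifts was not tested.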

Other observations

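Transcription regulators of respiratory genes were tested for 11 of 11 genes, and 0 were called. Their estimates were 6 below and 5 above 0, with a median log2 fold change of -0.06. Yy1, a zinc-finger factor and the most abundant of them, had 115 and 88.3 CPM in KO and 73.4 and 95.5 CPM in WT libraries. Nrf1, the factor whose motif was searched in the promoters, had the lowest estimate of the list (chosen after its values were seen), with 38.8 and 18.8 CPM in KO and 57.6 and 44.6 CPM in WT libraries. Both KO libraries lay below both WT libraries, and the log2 fold change was -0.83 ± 0.46 (SE) with an unadjusted p of 0.117 (edgeR), not called. Of the list 9.09% had both KO libraries below both WT libraries, where 13.7% of all genes did. Gabpb1 and Gabpb2 had both KO libraries above both WT libraries (18.2% of the list, where 11.8% of all genes did). Their log2 fold changes were 0.27 ± 0.46 and 0.15 ± 0.29.

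Among genes of complex IV assembly, the 2 lowest estimates belonged to Surf1 and Cox11, chosen after their values were seen. Surf1, whose loss in humans causes Leigh syndrome, had 17.6 and 11.5 CPM in KO and 30.9 and 32.7 CPM in WT libraries, a log2 fold change of -1.13 ± 0.48. Cox11, which delivers copper to the catalytic core, had 6.49 and 18.3 CPM in KO and 28.3 and 31.4 CPM in WT libraries, a log2 fold change of -1.27 ± 0.61. Usmg5, also chosen after its values were seen, a small protein of the ATP synthase membrane part, had 27.7 and 15.9 CPM in KO and 49.3 and 33.8 CPM in WT libraries, a log2 fold change of -0.93 ± 0.47. Each had both KO libraries below both WT libraries, as 13.7% of all genes did, and none was called (edgeR, adjusted p 0.9999). Over the 29 assembly factors tested, both KO libraries lay below both WT libraries in 7 (24.1%, where 13.7% of all genes did). They lay above them in 3 (10.3%, where 11.8% of all genes did). The 3 were Lyrm7, Coa6 and Coa4, with log2 fold changes of 1.04 ± 1.02, 0.85 ± 1.09 and 0.71 ± 1.39.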
